A study of Mus musculus with 6 samples.

Results

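The Tcea family holds the genes for transcription elongation factor TFIIS, and mice have 3 of them: Tcea1, Tcea2 and Tcea3. The members were taken by gene symbol, which gave 3 of the 54087 gene rows in each count file. All 3 were among the 21314 genes that passed the filter on low counts. Tcea3 was chosen by its measured log2 fold change between KO/KO and WT/WT in these same libraries, one of the largest falls of the series, so its values are given as a description with no test. Tcea1 and Tcea2 follow from the family name, and were tested. The question asked of them is whether the paralogues carry more RNA where Tcea3 carries less.

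RNA was sequenced from 3 Dnmt3A KO/KO and 3 Dnmt3A WT/WT samples of male C57BL/6 mice aged 10 days post partum. Both genotypes gave germ cells sorted for bright and medium Id4-GFP, a reporter that marks a population enriched for spermatogonial stem cells. Dnmt3A is a de novo DNA methyltransferase. The labels do not say how the Dnmt3A allele was made, in which cells it is lost, or whether each sample is a separate animal, so p-values measure only the spread between these samples.

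TFIIS binds RNA polymerase II that has stalled and slid backwards on its template. The zinc ribbon at the end of the protein reaches the active site and makes the polymerase cut the RNA it holds, which frees it to resume elongation. Tcea1 is the widely expressed form. In mice, Tcea2 has been described as enriched in testis, and Tcea3 in tissues such as liver, kidney, heart and skeletal muscle.

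The 3 genes lie on different chromosomes, all on the plus strand, in GRCm38 (mm10) with the GENCODE M21 annotation. Tcea1 (ENSMUSG00000033813.15) spans chr1:4857814-4897909, with 3017 bases of exon and 936 bases of coding sequence. Tcea2 (ENSMUSG00000059540.15) spans chr2:181680310-181688071, with 2704 bases of exon and 897 of coding sequence. Tcea3 (ENSMUSG00000001604.14) spans chr4:136247729-136274898, with 1400 bases of exon and 1041 of coding sequence. The coding sequences were of similar length, at 312, 299 and 347 codons for Tcea1, Tcea2 and Tcea3. Tcea1 therefore has the longest untranslated exons for its coding length and Tcea3 the shortest, which bears on every level given per exon length.

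The last 90 coding bases, which code for the end of the zinc ribbon, show how far the paralogues have diverged and so how far reads of one could be taken for another. They are printed 5′ to 3′ from the GENCODE M21 transcripts, with capitals where a base differs from Tcea1:
Tcea1: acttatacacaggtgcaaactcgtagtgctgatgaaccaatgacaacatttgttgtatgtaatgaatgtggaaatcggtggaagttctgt
Tcea2: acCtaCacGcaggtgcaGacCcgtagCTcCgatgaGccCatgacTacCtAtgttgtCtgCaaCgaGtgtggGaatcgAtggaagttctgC
Tcea3: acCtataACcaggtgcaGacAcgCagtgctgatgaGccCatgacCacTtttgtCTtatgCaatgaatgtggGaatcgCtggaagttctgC

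In this stretch Tcea2 was 77.8% identical to Tcea1, Tcea3 was 82.2% identical to Tcea1, and Tcea2 and Tcea3 were 81.1% identical to each other. Over the whole coding sequence identity was lower, at 67.1% for Tcea1 and Tcea2, 66.5% for Tcea1 and Tcea3, and 68.3% for Tcea2 and Tcea3. No stretch of 50 bases in the transcripts of Tcea2 or Tcea3 was found in the transcripts of any other gene, and neither gene shares exon bases with another. Of the 50-base stretches of Tcea1, 26.7% also occur in another gene, of which the processed pseudogene Tcea1-ps1 (chr15:90882615-90883518) holds the most, 21.1%. Counts of Tcea1 therefore depend in part on how reads that fit several places were treated, which the sources used here do not give. Tcea1 also shares 6.5% of its exon bases with the protein-coding gene Gm37988 on the same strand, so reads there are not its alone.

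The libraries held between 42681201 and 61749155 counts on genes. Of the 21314 genes tested, 3144 passed an adjusted p of 0.05 in edgeR's quasi-likelihood test, which is 14.8%, with 1776 higher (8.33%) and 1368 lower (6.42%) in KO/KO. Dnmt3a itself had 90.2, 104 and 99.5 CPM (counts scaled to a common library depth) in the KO/KO libraries, against 215, 193 and 188 CPM in the WT/WT libraries. Its log2 fold change was -1.02 (SE 0.09, adjusted p = 0.000222), so a good part of the transcript remained in KO/KO. KO/KO replicate 1 lay nearer to the WT/WT libraries than the other KO/KO libraries did, with a chi-square per degree of freedom over genes of 38 to 38.8 against 78.3 to 100.

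The 3 members did not share a direction. Tcea3 was nearly gone from KO/KO cells, Tcea1 was lower and Tcea2 was higher. For none of the 3 did the KO/KO and WT/WT libraries overlap, which was also the case for 35.8% of all genes tested. Since these are bulk samples, fewer cells of a type and less RNA per cell cannot be told apart.

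Tcea3 had 35, 11 and 32 reads in the KO/KO libraries, against 259, 284 and 328 reads in the WT/WT libraries. Scaled to depth, these were 0.782, 0.223 and 0.496 CPM in KO/KO and 5.91, 5.9 and 8.04 CPM in WT/WT. The highest KO/KO library, replicate 1, was still far below the lowest WT/WT library. The means were 0.5 ± 0.279 CPM in KO/KO and 6.62 ± 1.23 CPM in WT/WT (SD, n = 3 each), a log2 fold change of -3.73 (SE 0.37), or a level 13.3-fold higher in WT/WT. Without KO/KO replicate 1 the log2 fold change was -4.15, and without KO/KO replicate 2, the library with 11 reads, it was -3.39. Of all genes tested, 15 had a more negative log2 fold change, and 1 of these was a called gene whose mean abundance reached a log2 CPM of 1. Among such called genes with no predicted or clone symbol, the next after Tcea3 in that order was Rspo1, a secreted activator of Wnt signalling, at -3.60.

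Tcea1 had 1415, 1306 and 1696 reads in the KO/KO libraries, against 1760, 1942 and 1638 reads in the WT/WT libraries. In CPM it had 31.6, 26.5 and 26.3 in KO/KO and 40.2, 40.3 and 40.1 in WT/WT. The WT/WT libraries were nearly equal, and KO/KO replicate 1 was the KO/KO library nearest to them. Tcea1 averaged 28.1 ± 3.02 CPM in KO/KO and 40.2 ± 0.0988 CPM in WT/WT (SD, n = 3 each) and fell by 0.52 on the log2 scale (SE 0.11, edgeR adjusted p = 0.0111), to 0.699 of the WT/WT level. The direction held without each library in turn, but without WT/WT replicate 2 the adjusted p was 0.0613 (0.000926 to 0.0613 over the alternatives). Of all genes tested, 12.8% had a more negative log2 fold change.

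Tcea2 had 374, 429 and 580 reads in the KO/KO libraries, against 254, 196 and 191 reads in the WT/WT libraries. In CPM it had 8.36, 8.69 and 8.99 in KO/KO and 5.8, 4.07 and 4.68 in WT/WT. Here the KO/KO libraries were the close ones, and the WT/WT libraries spread more. Tcea2 averaged 8.68 ± 0.319 CPM in KO/KO and 4.85 ± 0.876 CPM in WT/WT (SD, n = 3 each) and rose by 0.84 on the log2 scale (SE 0.18, edgeR adjusted p = 0.0127), which is 1.79-fold. The adjusted p was 0.057 when WT/WT replicate 3 was left out and 0.0734 when WT/WT replicate 2 was (0.000366 to 0.0734 over the alternatives). Of all genes tested, 9.41% had a higher log2 fold change.

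**Figure D1:**
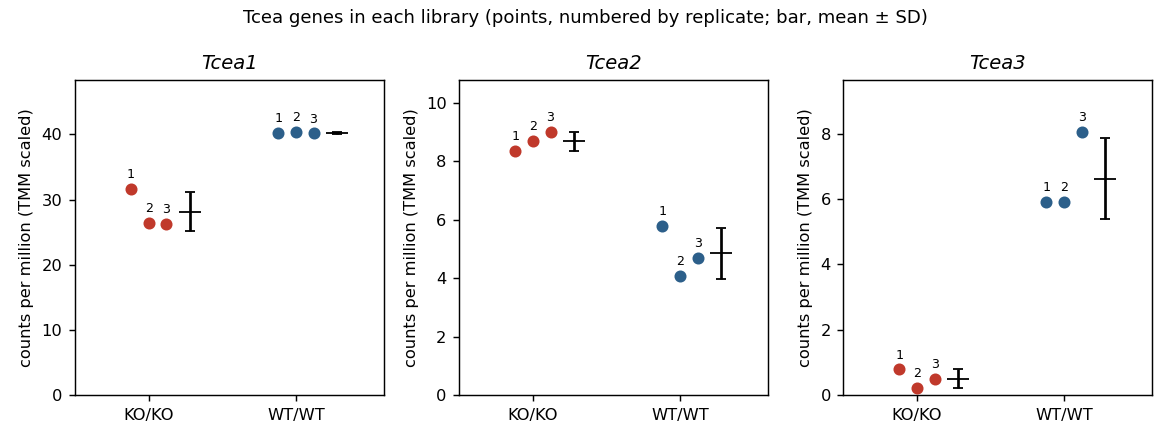
Level of Tcea1, Tcea2 and Tcea3 in each library, in CPM on a linear axis from 0, with KO/KO left of WT/WT; points are libraries, numbered by replicate, and bars are the mean ± SD (n = 3). No KO/KO point overlaps the WT/WT points: those of Tcea1 and Tcea3 lie below them and those of Tcea2 above.

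The ratio of Tcea2 to Tcea1 reads within a library does not depend on scaling. It was 0.264, 0.328 and 0.342 in KO/KO, against 0.144, 0.101 and 0.117 in WT/WT, and averaged 0.312 ± 0.0415 in KO/KO and 0.121 ± 0.022 in WT/WT (SD, n = 3 each), a 2.58-fold difference. The log2 ratio differed by 1.38 (two-sided exact permutation test, p = 0.1, the smallest p that 3 against 3 libraries can give).

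Levels of different genes can be compared only per length. In RPKM (CPM divided by kilobases of exon), Tcea1 had 10.5, 8.77 and 8.72 in KO/KO and 13.3, 13.4 and 13.3 in WT/WT. Tcea2 had 3.09, 3.22 and 3.33 RPKM in KO/KO and 2.14, 1.51 and 1.73 RPKM in WT/WT. Tcea3 had 0.558, 0.159 and 0.354 RPKM in KO/KO and 4.22, 4.21 and 5.74 RPKM in WT/WT. Tcea1 was the most abundant member in every library of both genotypes. Tcea2 came next and Tcea3 last in every KO/KO library, while Tcea3 came next and Tcea2 last in every WT/WT library. Scaled to coding length instead, the order in KO/KO was the same, but the WT/WT libraries did not separate Tcea3 from Tcea2. In the WT/WT libraries Tcea3 then had 5.68, 5.67 and 7.72 and Tcea2 6.46, 4.54 and 5.22 CPM per kilobase of coding sequence.

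Summed over Tcea1 and Tcea2, the 2 members not picked for their values, the level was 13.6, 12 and 12 RPKM in KO/KO, against 15.5, 14.9 and 15 RPKM in WT/WT. The paralogues together were thus lower in every KO/KO library. The sum averaged 12.5 ± 0.896 RPKM in KO/KO and 15.1 ± 0.302 RPKM in WT/WT (SD, n = 3 each), a KO/KO to WT/WT ratio of 0.829 (two-sided exact permutation test, p = 0.1, the smallest that can be reached). The ratio was 0.821 per coding length and 0.817 in CPM with no length scaling. The mean difference, KO/KO minus WT/WT, was -4.01 RPKM for Tcea1, 1.42 RPKM for Tcea2 and -4.37 RPKM for Tcea3. The gain of Tcea2 therefore equalled 32.4% of the Tcea3 difference per exon length, 72.7% per coding length and 62.6% in CPM with no length scaling. The fall of Tcea1 was smaller than that of Tcea3 only per exon length. Per kilobase of coding sequence the differences were -12.9 CPM for Tcea1 and -5.88 CPM for Tcea3. With no length scaling they were -12.1 CPM for Tcea1 and -6.12 CPM for Tcea3.

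Summed over all 3 members, the level was 14.1, 12.1 and 12.4 RPKM in KO/KO, against 19.7, 19.1 and 20.8 RPKM in WT/WT. The sum was 35.1% lower in KO/KO per exon length, 26.5% lower per coding length and 27.8% lower in CPM with no length scaling. Tcea3 made up 2.71 ± 1.33% of the sum per exon length in KO/KO and 23.7 ± 3.4% in WT/WT (SD, n = 3 each). Tcea2 made up 25.1 ± 2.76% in KO/KO and 9.04 ± 1.62% in WT/WT, and Tcea1 72.2 ± 1.93% in KO/KO and 67.2 ± 3.02% in WT/WT. Per coding length the share of Tcea3 was 1.17% in KO/KO and 11.6% in WT/WT, so the size of its share depends on the length used. The share of Tcea1 was higher in KO/KO only per exon length. Per coding length it was 74.6% in KO/KO and 78.5% in WT/WT, and in CPM with no length scaling 75.3% in KO/KO and 77.9% in WT/WT.

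**Figure D2:**
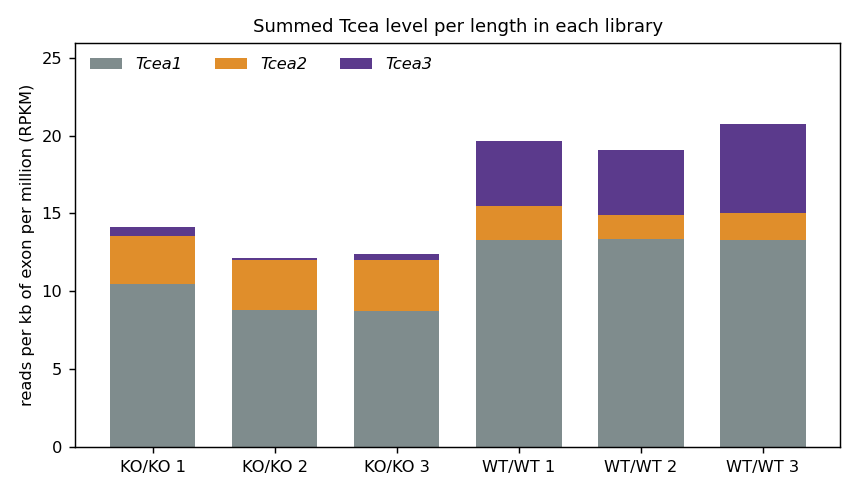
Level of Tcea1, Tcea2 and Tcea3 stacked in each library, in RPKM per exon length, with KO/KO left of WT/WT. The stacks reached 12.1 to 14.1 RPKM in KO/KO and 19.1 to 20.8 RPKM in WT/WT, and Tcea3 is a thin layer in KO/KO.

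Among other genes whose symbol begins with Tcea, the pseudogene Tcea1-ps1 did not pass the test. It had 20, 13 and 16 reads in KO/KO and 32, 29 and 32 reads in WT/WT, and its log2 fold change was -1.15 (SE 0.43, edgeR adjusted p = 0.107). Of its 50-base stretches 73.3% also occur in Tcea1, so its reads and those of Tcea1 may not be separable. Tceanc and Tceanc2, named for carrying the N-terminal and central domains of TFIIS, had overlapping libraries and no call. Tceanc averaged 10.3 CPM in KO/KO and 10.3 CPM in WT/WT, and Tceanc2 averaged 11.1 CPM in KO/KO and 10.7 CPM in WT/WT. None of the Tceal genes tested passed the test, which 14.8% of all genes did.

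Of the 12 genes listed as carrying a domain of TFIIS, all tested, 2 were called higher and none lower, which is 16.7% beside 14.8% of all genes. Their median log2 fold change was 0.12, against 0.00 for all genes tested, and the values ran from -0.14 for the Mediator subunit Med26 to 1.46 for Spocd1. Spocd1, a germ cell protein that in mice is required for piRNA-directed DNA methylation, had 26, 53 and 28.2 CPM in KO/KO and 15.5, 12.7 and 10.9 CPM in WT/WT. It was higher in every KO/KO library, with replicate 2 far above the others (log2 fold change 1.46, SE 0.26, edgeR adjusted p = 0.00588). Eloa, the Elongin subunit that raises the rate of elongation, had 28.8, 34.9 and 37.7 CPM in KO/KO and 24, 20.9 and 23.1 CPM in WT/WT. It rose by 0.58 on the log2 scale (SE 0.13, edgeR adjusted p = 0.0142), but the adjusted p was 0.0553 when WT/WT replicate 3 was left out and 0.0864 when WT/WT replicate 2 was. Of its exon bases 10.8% lie opposite the antisense gene Gm13008.

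RNA polymerase II itself, the enzyme that TFIIS acts on, showed no called subunit among 13 of 13 tested, where 14.8% of all genes were called. With so few subunits, a count of none is near that share. At an unadjusted p under 0.05 there were 2, and DESeq2 and limma-voom each called 0. The median log2 fold change was 0.03, with values from -0.31 for Polr2e, a subunit shared by all 3 nuclear polymerases, to 0.30 for Polr2i, 26.8% of whose exon bases lie opposite Tbcb. Polr2a, the catalytic subunit, averaged 735 ± 34.9 CPM in KO/KO and 712 ± 10.2 CPM in WT/WT (SD, n = 3 each). Polr2e averaged 60.1 ± 9.25 CPM in KO/KO and 74.6 ± 8.46 CPM in WT/WT (edgeR adjusted p = 0.136). Without the filter on low counts, Polr2e was called, with an adjusted p of 0.0413.

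Of 46 listed elongation factors, Eloa among them and all tested, 3 were called higher and 3 lower, 13% beside 14.8% of all genes, and the median log2 fold change was 0.04. Libraries of the genotypes did not overlap for 10 that were higher and 11 that were lower, where 18.2% and 17.5% of all genes did so. Ell3, an ELL family factor described as enriched in testis, had 7.1, 7.07 and 7.37 CPM in KO/KO and 13.4, 13.8 and 12.6 CPM in WT/WT (log2 fold change -0.89, SE 0.13, edgeR adjusted p = 0.00257). Of its exon bases 65.6% are shared with Serinc4 on the same strand, so its reads are not all its own. Nelfcd, a subunit of the NELF complex that holds polymerase near promoters, averaged 72.2 ± 4.13 CPM in KO/KO and 54.4 ± 1.13 CPM in WT/WT (SD, n = 3 each; edgeR adjusted p = 0.011). Wdr61, of the PAF1 and SKI complexes, averaged 32.7 ± 3.55 CPM in KO/KO and 45.3 ± 4.52 CPM in WT/WT (edgeR adjusted p = 0.0259).

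The remaining calls were in the P-TEFb system, which releases paused polymerase. Hexim2, an inhibitor of P-TEFb, averaged 8.82 ± 2.54 CPM in KO/KO and 4.88 ± 0.521 CPM in WT/WT (SD, n = 3 each; edgeR adjusted p = 0.0302). Cdk9, the kinase of P-TEFb, averaged 48.2 ± 5.31 CPM in KO/KO and 62.1 ± 2.96 CPM in WT/WT (edgeR adjusted p = 0.0403). Both were named after their values were seen. Of the 6 calls, that of Ell3 held without each library in turn. With a WT/WT library left out, the adjusted p reached 0.0613 for Nelfcd, 0.122 for Wdr61, 0.112 for Hexim2 and 0.159 for Cdk9, and these calls were lost, as was that of Eloa.

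Tceal genes are named for likeness to TFIIS, and Bex genes are related to them. Of 12 Tceal and Bex genes listed, 10 were tested and none was called by edgeR, DESeq2 or limma-voom, and none had an unadjusted p under 0.05. In edgeR 14.8% of all genes were called, and with so few genes a count of none is near that share. Log2 fold changes ran from -0.24 for Bex4 to 0.55 for Tceal5, with a median of 0.07. Tceal5 was barely detected, at a mean of 0.342 CPM in KO/KO and 0.236 CPM in WT/WT. Bex4 averaged 18.5 ± 3.14 CPM in KO/KO and 21.9 ± 0.14 CPM in WT/WT (SD, n = 3 each), and Bex1 averaged 20.6 ± 1.55 CPM in KO/KO and 18.5 ± 1.37 CPM in WT/WT.

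**Figure D3:**
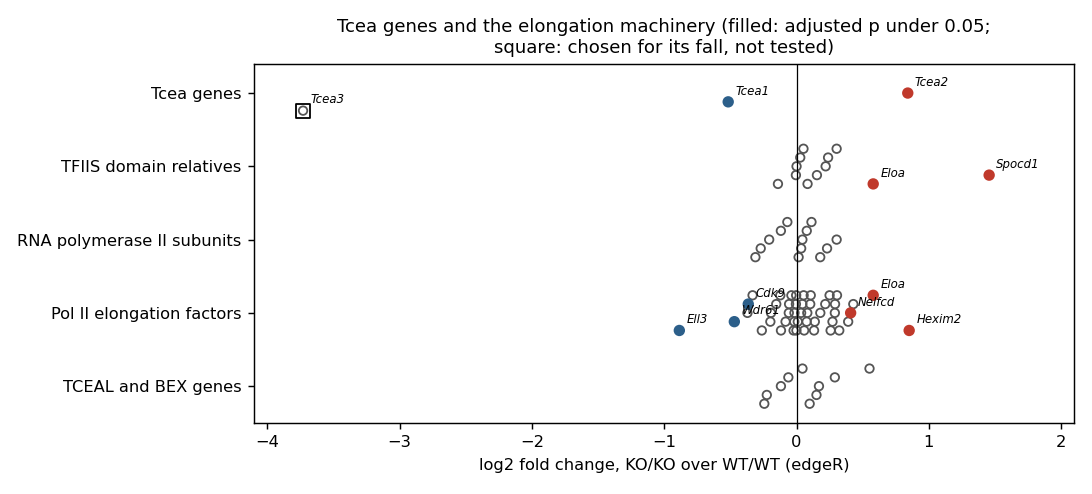
Log2 fold change, KO/KO over WT/WT, of the Tcea genes, the genes with a TFIIS domain, the RNA polymerase II subunits, the other elongation factors and the Tceal and Bex genes; each point is a gene, filled in red or blue where called by edgeR, and Tcea3 is drawn in a square as not tested. The polymerase subunits lie between -0.31 and 0.30 and the TFIIS domain genes between -0.14 and 1.46, while Tcea3 lies at -3.73.

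The CPM of Tcea3 was compared with those of 11816 genes whose mean log2 CPM over the same 6 libraries reached 1. Genes with predicted or clone symbols were left out. The measure was the root mean square difference of log2(CPM + 0.5) after centring each gene. The median difference from Tcea3 was 1.45. The nearest genes were Lef1, a transcription factor of Wnt signalling, at 0.221, and Podxl, a surface sialomucin, at 0.223. The LIM homeobox gene Lhx8 followed at 0.294, Rspo1 at 0.306 and the chemokine gene Cxcl12 at 0.31. Next came Myh3, an embryonic myosin heavy chain, at 0.322, the Wnt modulator Sfrp2 at 0.333 and Mycl, of the MYC family, at 0.344. All 8 were lower in KO/KO than in WT/WT. Lef1 averaged 1.88 CPM in KO/KO and 15.7 CPM in WT/WT, and Podxl averaged 8.34 CPM in KO/KO and 47.6 CPM in WT/WT. The 6 libraries fall in 2 groups, so the size of a gene's fall in KO/KO enters this measure along with the spread within each group.

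Genes of germ cell stages lay at various distances from Tcea3. Since Tcea3 was picked for its fall, genes that fell strongly in KO/KO tend to lie near it on this measure, and genes that rose lie far. The 10 listed genes of differentiating spermatogonia ran from 0.358 for Dmrtb1, a regulator of the switch between mitosis and meiosis with 9 genes nearer, to 1.61 for Prss50, with 9334 nearer. Kit, the receptor that marks differentiating spermatogonia, was at 0.635 with 62 nearer. The 12 progenitor genes ran from 0.598 for the transcription factor Neurog3, with 54 nearer, to 1.79 for Piwil4, with 10890 nearer. The 15 stem cell genes ran from 1.16 for Egr4, with 606 nearer, to 2.4 for Id4, with 11749 nearer. Id4, the gene of the reporter used for sorting, had 86.7, 176 and 159 CPM in KO/KO and 36.9, 38 and 38.4 CPM in WT/WT. Its log2 fold change was 1.89 (SE 0.22, edgeR adjusted p = 0.000814). Kit had 38.6, 5.63 and 8.44 CPM in KO/KO and 118, 98.9 and 150 CPM in WT/WT. KO/KO replicate 1 had the highest Tcea3 and the highest Kit of the KO/KO libraries. It was also the KO/KO library nearest to WT/WT over all genes, and a link between Kit and Tcea3 was not tested. In the edgeR test, which called 8.33% of all genes higher and 6.42% lower, 5 of the differentiation genes were lower and none higher, and 4 to 6 were called when 1 library was left out. Of the progenitor genes 7 were lower and 1 higher, and 4 were called in all when either WT/WT replicate 1 or WT/WT replicate 2 was left out. Of the stem cell genes 11 were higher and 3 lower, and 8 were called in all when either WT/WT replicate 2 or WT/WT replicate 3 was left out. Their part in the Tcea values was not tested.

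**Figure D4:**
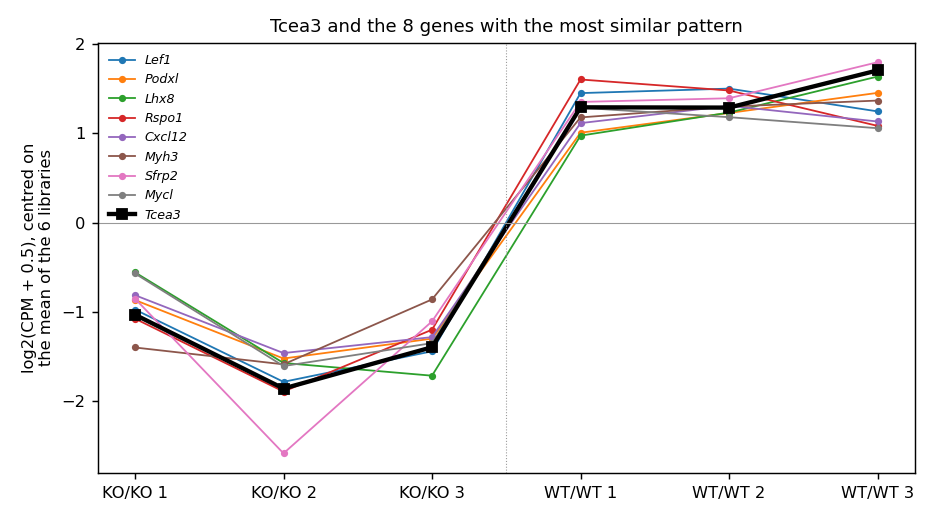
Log2(CPM + 0.5), centred on the mean of the 6 libraries, of Tcea3 and of the 8 genes with the most similar pattern among those compared, with KO/KO libraries left of WT/WT. All 9 lines lie below 0 in KO/KO and above 0 in WT/WT.

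The genes nearest to Tcea1 and Tcea2 on the same measure were closer than those nearest to Tcea3. For Tcea1 they were Smad1, a transducer of BMP signals, at 0.0265, Nol9, an RNA kinase of ribosomal RNA processing, at 0.0325, and Tmem19 at 0.0354. For Tcea2 they included the F-box gene Fbxl7 at 0.0549 and the bHLH-PAS factor Arnt2 at 0.0606. The median differences over the same pool were 0.312 for Tcea1 and 0.455 for Tcea2.

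Markers of other cell types were read beside these results. Of 45 markers of Sertoli, Leydig, peritubular or stromal, endothelial and blood cells, 36 were tested, with 8 higher and 2 lower in KO/KO, where 8.33% of all genes were higher and 6.42% lower. Their summed level was 1307 to 1610 CPM in KO/KO and 1084 to 1432 CPM in WT/WT, most of it from the Sertoli list, and no marker was at 0 in all libraries. The largest part of the Sertoli sum was Tjp1, which averaged 669 CPM in KO/KO and 501 CPM in WT/WT. Tjp1 was called higher, but not without WT/WT replicate 2 or WT/WT replicate 3. The other Sertoli marker called higher, Rhox5, averaged 23.5 CPM in KO/KO and 0.812 CPM in WT/WT. The median log2 fold change of the tested markers was -0.08, and 0.03 within the Sertoli list. The endothelial list summed to 120 to 159 CPM in KO/KO and 33.8 to 40.6 CPM in WT/WT, with 4 of 6 tested members higher (Cdh5, Kdr, Flt1 and Vwf). Pecam1, at 0.16, and Tek, at -0.18 on the log2 scale, were not called. The peritubular and stromal list summed to 49.9 to 71.4 CPM in KO/KO and 88.9 to 134 CPM in WT/WT, with 2 of 10 members lower and none higher. Most of that difference lay in Col1a1, a collagen gene, which averaged 24.3 CPM in KO/KO and 66.3 CPM in WT/WT. The 10 germ cell genes summed to 1574 to 1749 CPM in KO/KO and 2032 to 2082 CPM in WT/WT. Of these, 1 was higher (Nanos2) and 4 lower (Dppa3, Sall4, Zbtb16 and Uchl1), with 2 to 4 called in all when 1 library was left out. The median log2 fold change of this list was -0.29. Ddx4, a germ cell RNA helicase, averaged 437 ± 32.6 CPM in KO/KO and 369 ± 10.2 CPM in WT/WT (SD, n = 3 each). It was not called (edgeR adjusted p = 0.0643). The part of other cell types in the Tcea values was not tested.

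The protein-coding genes around each member, up to 5 tested on each side, are given with the distance between start sites. Of 28 such neighbours 6 were called higher and 3 lower, where 8.33% and 6.42% of all genes were, but 2 to 8 of them were called when 1 library was left out. Beside Tcea3, Asap3, an Arf GTPase activator 41.4 kb away, was lower (log2 fold change -0.57, SE 0.16, edgeR adjusted p = 0.0435), while the zinc finger gene Zfp46, 37 kb away, had a log2 fold change of -0.01 (adjusted p = 0.978). Htr1d, a serotonin receptor gene 176 kb away, had 0.335, 0.263 and 0.295 CPM in KO/KO and 1.76, 1.72 and 1.3 CPM in WT/WT (log2 fold change -2.41, SE 0.34, edgeR adjusted p = 0.00193). Kdm1a, a histone demethylase gene 355 kb away, averaged 120 ± 13.4 CPM in KO/KO and 164 ± 4.06 CPM in WT/WT (SD, n = 3 each; edgeR adjusted p = 0.0108). Eloa also lies in this neighbourhood, 226 kb from Tcea3, and was higher. The calls of Htr1d and Kdm1a held without each library in turn, while that of Asap3 was lost without any 1 of the 6 libraries with its direction kept (adjusted p up to 0.151). The median log2 fold change over the 10 neighbours of Tcea3 was -0.09.

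Around Tcea2, 4 of 10 neighbours were called higher, beside 8.33% of all genes, and none lower, with a median log2 fold change of 0.43 and values from -0.01 to 1.77. Every KO/KO library was above every WT/WT library for 7 of the 10, beside 18.2% of all genes. The nearest, Sox18, a transcription factor known from endothelial cells, 8.67 kb away, rose by 0.71 on the log2 scale (edgeR adjusted p = 0.0377). Rgs19, a regulator of G-protein signalling 13.7 kb away on the other side, was at 0.48 (adjusted p = 0.0763). Oprl1, the nociceptin receptor gene, rose by 1.77 (adjusted p = 0.036), the zinc finger factor Myt1 by 1.61 (adjusted p = 0.0354) and Pcmtd2 by 0.51 (adjusted p = 0.0175). Oprl1 and Myt1 had few reads, with means of 1.74 and 1.02 CPM in KO/KO and 0.507 and 0.333 CPM in WT/WT. Each of these 4 calls was lost when WT/WT replicate 2 was left out, among other libraries, with adjusted p up to 0.139 for Sox18, 0.13 for Oprl1, 0.13 for Myt1 and 0.0903 for Pcmtd2. Of the endothelial markers given above, 4 of 6 tested were also higher in KO/KO, and their part in these values was not tested. Around Tcea1, the nearest tested gene on each side was Lypla1, an acyl-protein thioesterase gene 50 kb away, at -0.11 (edgeR adjusted p = 0.636), and, on the other side, Atp6v1h, a proton pump subunit gene 212 kb away, at 0.15 (adjusted p = 0.371). Of its 8 neighbours 1 was called, the zinc finger factor St18, 1629 kb away. St18 was higher, at 0.98 (edgeR adjusted p = 0.0195, and up to 0.0845 with a WT/WT library left out). The neighbours of Tcea1 lay up to 4688 kb away, against up to 184 kb for those of Tcea2 and 355 kb for those of Tcea3.

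**Figure D5:**
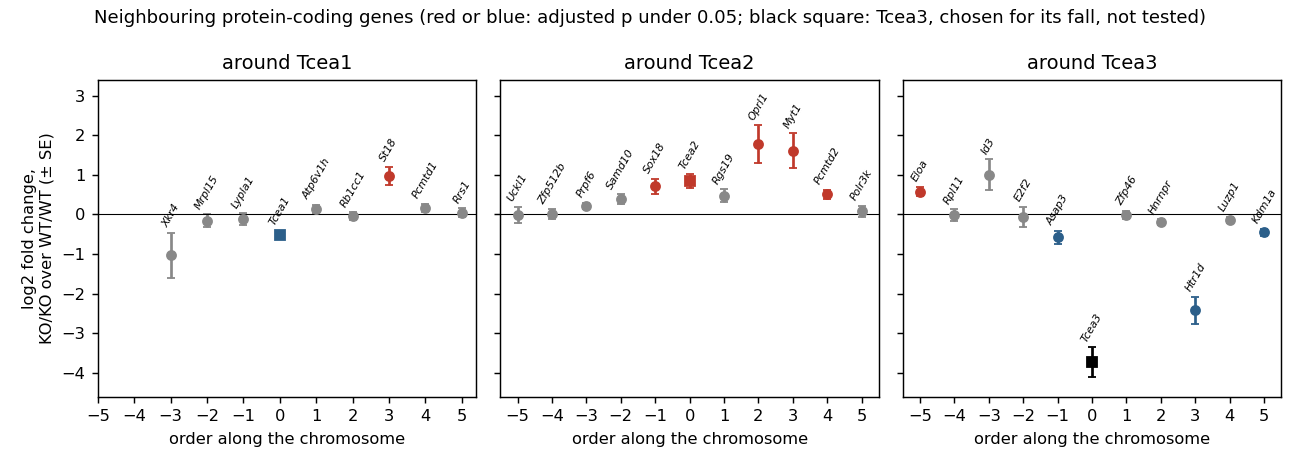
Log2 fold change, KO/KO over WT/WT, of the protein-coding genes on each side of Tcea1, Tcea2 and Tcea3, by order along the chromosome; bars are the SE, red or blue points were called by edgeR, squares are the Tcea genes, and the black square is Tcea3, not tested. Tcea3 lies at -3.73 and the lowest of its neighbours is Htr1d at -2.41, while around Tcea2 values run from -0.01 to 1.77.

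Because Dnmt3A methylates CpG sites, the promoter of the most changed member is shown with each CpG in capitals. It is the 250 bases before the RefSeq start of Tcea3, chr4:136247707-136247956 on the plus strand of GRCm38.p6, and Tcea1 and Tcea2 were not matched in the same table:
Tcea3 promoter: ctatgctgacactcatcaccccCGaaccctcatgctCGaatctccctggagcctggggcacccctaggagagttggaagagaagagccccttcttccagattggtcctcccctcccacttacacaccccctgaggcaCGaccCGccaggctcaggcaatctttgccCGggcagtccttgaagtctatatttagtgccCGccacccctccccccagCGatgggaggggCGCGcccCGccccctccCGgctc

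GENCODE M21 start sites of Tcea3 at 136247729 and 136247952 lie inside this window, so most of it is within the annotated gene. The window held 11 CpG sites, and 35.6% of the 32851 RefSeq promoter windows of the same length held at least as many, with a median of 6. Its ratio of observed to expected CpG was 0.465, against a median of 0.373, and its GC content was 64%. The GC box GGGCGG, searched on both strands, was present, as in 32.7% of the windows, and TATAAA, searched on both strands, was not, where 12.4% of the windows held it. No methylation values were analysed here.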

How the data were processed

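Total RNA of sorted Id4-GFP germ cells was sequenced from SMARTer stranded libraries, per the labels' protocols. The authors deposited raw read counts per gene and per transposable element family, and the submitters' processing notes name mm10, STAR 2.7.0a and featureCounts 1.5.1. The sources used here do not give the annotation release, the strand setting, or how reads that fit several places were handled.

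Gene rows (54087 of 55292) were tested with the quasi-likelihood F test of edgeR 4.0.16 under R 4.3.3 (TMM factors, filterByExpr, genotype as the only term, 3 libraries each), two-sided, with Benjamini-Hochberg adjustment over all 21314 genes tested and a threshold of 0.05. Family rows, 14.1% to 15.5% of counts, were left out. CPM used gene totals and TMM factors, which lay between 0.956 and 1.044. RPKM divided CPM by the union of exons, or the coding length, in GENCODE M21. The fit was tested on simulated counts. Alternatives tried were upper quartile and RLE factors, no filter, a filter of 1 CPM in 3 libraries, leaving out each library, a replicate block, DESeq2 1.42.0 and limma-voom (limma 3.58.1). Single values were compared with an exact permutation test.

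The members, gene lists and tests were chosen with earlier results of these data known. The rule for named genes took the Tcea rows, Dnmt3a, up to 4 called members of a list (up to 2 tested where none was called), the nearest neighbour on each side and any called neighbour, and the 8 genes nearest in pattern to Tcea3 and 3 each to Tcea1 and Tcea2, of which 1 is not reported here. Lists of stage and cell type markers are given as counts and sums, with a few members as examples chosen after their values were seen. Every pair of libraries differed by more than sampling noise.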

Additional observations from a re-analysis of the deposited data

How the results depend on the processing

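The number of genes called was 3144, and 1374 to 3365 when 1 library was left out. It was lowest without a WT/WT library (1735, 1374 and 1555 without replicates 1, 2 and 3), and the cause was not tested. Leaving out 1 library gave log2 fold changes of -0.60 to -0.46 for Tcea1, 0.72 to 0.99 for Tcea2 and -4.15 to -3.39 for Tcea3, and calls of 1 to 2 TFIIS domain relatives, 1 to 8 elongation factors and 2 to 8 neighbouring genes. With no filter 1 polymerase subunit and 10 elongation factors were called, and the cause was not tested. The summed level of all 3 members, as a log2 ratio of KO/KO to WT/WT, was -0.62 per exon length, -0.44 per coding length and -0.47 in CPM with no length scaling. The Tcea3 share differed by -21 percentage points per exon length, -10.4 per coding length and -11.5 in CPM, through the short exon length of Tcea3.

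Deviations of same-numbered libraries correlated at -0.126, 0.0499 and 0.0579, and those of the other pairs at -0.245 to 0.224. With 3 libraries per genotype, these values cannot settle whether the replicate numbers pair the libraries. With the replicate number as a block, 2574 genes and 5 neighbouring genes were called, Tcea1 was at -0.52 (edgeR adjusted p = 0.0224), Tcea2 at 0.85 (adjusted p = 0.0249) and Tcea3 at -3.81. Both tested members kept their direction and call under every alternative other than the left-out WT/WT libraries given in the report.

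Uncalled genes near 0 changed sign. Tceanc was at -0.00 with no filter, -0.03 with the replicate block and -0.06 in limma-voom, and Zfp46 at 0.01 with the 1 CPM filter. Leaving out 1 library gave -0.15 to 0.20 for Tceanc, -0.06 to 0.05 for Zfp46, -0.09 to 0.15 for Tceanc2, -0.17 to 0.32 for Tceal6, -0.21 to 0.71 for Tceal3 and -0.11 to 0.34 for Tceal9. Tcea3 rests on 11 to 35 reads per KO/KO library, which limits the precision of its fold change.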
